A study of Mus musculus with 2 samples.

Results

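Smooth muscle and pacemaker contractile genes were examined in the intestine of wild-type (WT) mice and of mice labelled as heterozygous for endoplasmic reticulum aminopeptidase 1 (ERAP1+/-). The set was defined by gene symbol and holds 34 of the 40879 gene symbols in the deposited tables. Its genes were chosen by their known roles, but with earlier results of these data known. Shares of the set given beside those of all genes are therefore descriptions only. All 34 had at least 10 reads over both libraries. The mice were 8 weeks old at the start of the study, on the C57BL/6 background, and neither group had received an agent to induce colitis. By the methods, control mice drank only regular water for 28 days before tissue was taken. The ERAP1 allele of the heterozygous mice was made with Cre recombinase from a targeted allele with loxP sites around exons 6 and 7, and the methods do not name the promoter that drives Cre. Equal amounts of intestinal RNA from 3 mice per genotype were pooled, and each pool gave 1 library of 3' tags of polyadenylated transcripts.

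With 1 library per genotype there is no replicate check on any difference and no p-value is given. Values are reads, CPM (counts per 1000000 reads, with library sizes adjusted by TMM, a trimmed mean of log ratios over genes) and differences in log2(CPM + 1), library labelled ERAP1+/- minus WT, a scale that understates the difference of genes with few reads. Intervals are exact 95% intervals of the ratio of reads and cover counting error only, so that differences between mice or between dissections are not in them, and reads copied by PCR are not independent molecules. Because the method places reads at the 3' end of a transcript, reads were not divided by gene length, and levels of different genes were not ranked. In RNA of whole tissue, fewer cells of a type and less RNA per cell cannot be told apart.

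The WT library held 8114826 reads and the library labelled ERAP1+/- 8907515. Erap1 itself had 229 reads in WT and 2 in the other library, a level of 0.730% of WT (95% interval 0.0878% to 2.67%), which is below the level that 1 intact copy would give. The reads lie at the 3' end, outside the deleted exons, and so do not test the deletion itself. The second library is therefore called the library labelled ERAP1+/- throughout, and each direction given here rests on that label. Markers of skeletal muscle and of epidermis were far lower in it. All 25 skeletal muscle markers with at least 10 reads were lower (the list of 26 had 11309 and 945 reads), as were all 12 epidermis markers (20668 and 365 reads). Markers of the intestinal epithelium were abundant in both libraries, with 9812 and 9413 reads of Epcam, an adhesion molecule of epithelial cells.

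Smooth muscle contracts when calcium enters the cell and binds calmodulin, which activates myosin light chain kinase. The kinase phosphorylates the regulatory light chain of smooth muscle myosin, myosin pulls on actin filaments that are anchored in dense bodies and at the membrane, and a myosin phosphatase reverses the step. In the gut wall, smooth muscle forms the circular and longitudinal layers of the muscularis externa and the thin muscularis mucosae, and interstitial cells of Cajal set the rhythm of contraction. The genes of the contractile apparatus are under the shared control of serum response factor (SRF), which binds the CArG box in DNA, and of its coactivator myocardin.

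The contractile genes were lower together in the library labelled ERAP1+/-, most of them by less than 2-fold. Of the pacemaker genes, Kit was more than 2-fold higher and Ano1 only slightly higher. Of the 34 genes, 31 were lower and 3 were higher, that is 91.2% lower against 49.7% of all 16142 genes with at least 10 reads. With library sizes taken as total counts, 30 were lower, against 39.6% of all these genes. With TMM, the median log2 difference of the 34 genes was -0.69, beside -0.03 for the 8013 genes that reached a log2 value of 4 in 1 or both libraries. The 34 genes together had 166496 reads in WT and 110220 in the other library, or 2.05% and 1.24% of all reads. After scaling this was a summed level of 21427 and 11849 CPM, lower by 44.7% (95% interval 44.3% to 45.1%).

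By the rule of a difference of more than 2-fold and a log2 value of at least 4 in 1 or both libraries, 6 of the 33 genes that reached this level were lower (18.2%), against 3.96% of all genes tested. These were Pdlim3, Tpm2, Cald1, Tagln, Myh11 and Mylk. Only Kit was more than 2-fold higher (3.03% of the 33 genes, against 1.39% of all genes tested), and it reached the level through the library in which it was higher. By a difference of more than 1.5-fold, 23 of the 33 were lower (69.7%), against 10% of all genes tested, and 1 was higher, against 5.54%. Under total counts in place of TMM, the median over genes past the level shifted by 0.12 on the log2 scale, 4 of the 34 genes were more than 2-fold lower, against 3.08% of all genes tested, and 16 more than 1.5-fold lower, against 7.0%. The gene below the level was Hspb7.

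**Figure D1:**
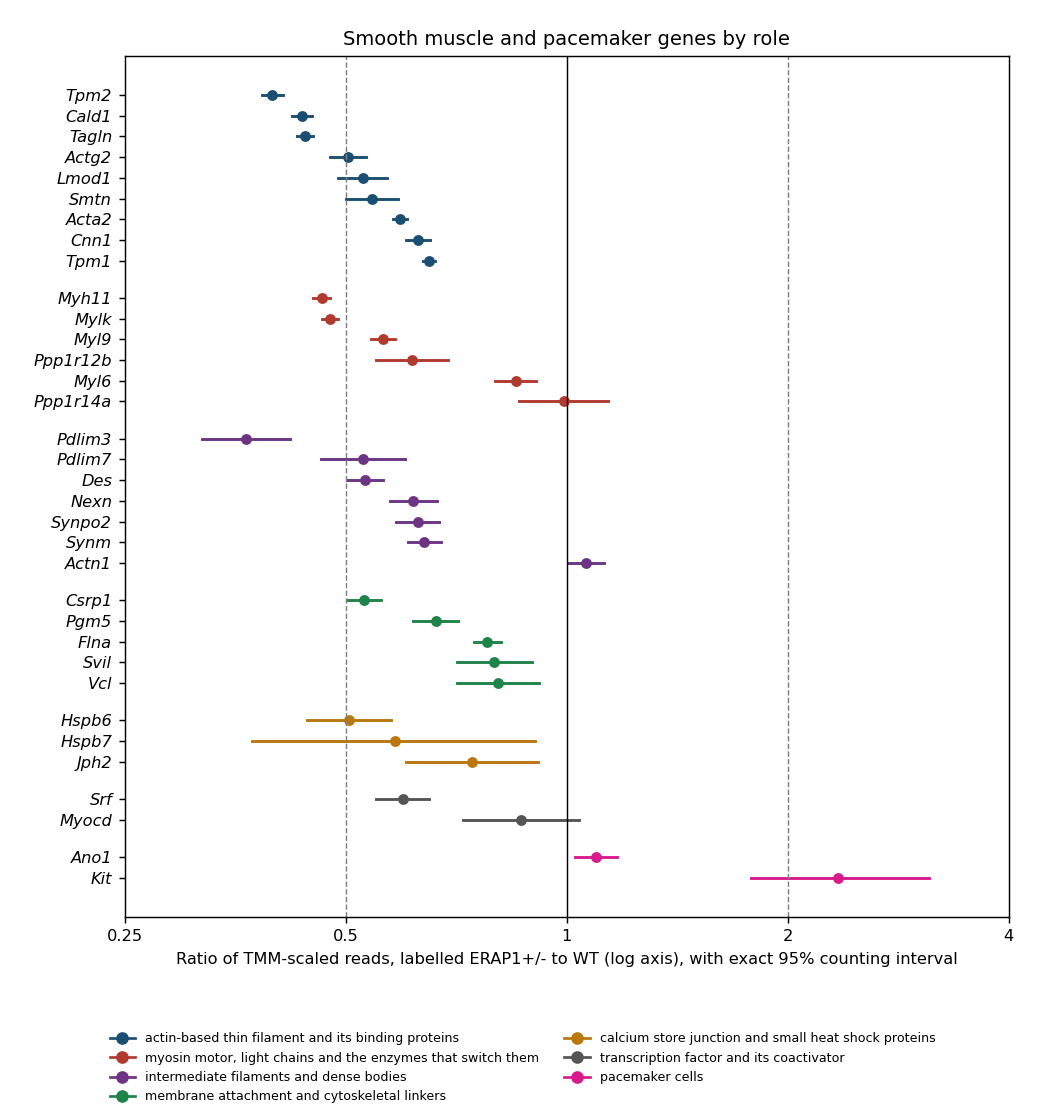
Ratio of TMM-scaled reads in the library labelled ERAP1+/- to the WT library for each of the 34 genes, grouped by role, on a log axis. Points are ratios, bars are exact 95% counting intervals and dashed lines mark 2-fold, and all genes except Actn1, Ano1 and Kit sit left of 1, with the bars of Ppp1r14a and Myocd across it.

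The transcription factor of the program and its coactivator differed in size. Srf, which binds the CArG box and is also expressed in many other cell types, had 1366 reads in WT and 977 in the other library. It was lower by 40.3%, a ratio of 0.597 (95% interval 0.550 to 0.649). Myocd, the myocardin gene, is expressed mostly in smooth muscle and had 240 and 249 reads, or 30.9 and 26.8 CPM. The 95% interval of its ratio (0.723 to 1.04) includes 1. The interval of Srf thus lay below 1 and that of Myocd did not. Of the 28 genes of the set with promoter windows in the RefSeq table of build GRCm38.p6 (250 bases before to 50 bases after a start site), 4 held a CArG box, a stretch of 10 bases made of CC, a run of A or T, and GG. This motif reads the same way on both strands. The share of genes with the motif was 14.3%, beside 1.81% of all 27025 genes with a window and 1.97% of the genes past the level of 4 that had one. The genes were Srf, Myl9, Vcl and Myl6, and their median log2 difference was -0.52, with a range of -0.83 to -0.23, beside -0.68 for the 24 genes without the motif in these windows. A match is a description of the sequence, and the windows of Actg2, Tagln, Myh11, Nexn, Svil and Myocd were not used here.

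The stretches around the motif of 3 of these genes are shown because they hold the SRF binding sequence and lie outside annotated exons, with the CArG boxes in capitals, 5′ to 3′ on the strand of the gene. In Srf, whose product binds this motif, a pair of boxes starts 82 and 62 bases before the start site. In Myl9 the box starts 161 bases and in Vcl 227 bases before it. In Myl6 it starts 50 bases before it, in a stretch that is wholly exon by the GENCODE M21 annotation and is not shown. The stretch of Srf lies within the span of the gene Gm26904.
Srf, chr17:46556176-46556284, minus strand: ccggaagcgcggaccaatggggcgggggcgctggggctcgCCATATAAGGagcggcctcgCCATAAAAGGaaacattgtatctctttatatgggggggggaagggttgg
Myl9, chr2:156775263-156775351, plus strand: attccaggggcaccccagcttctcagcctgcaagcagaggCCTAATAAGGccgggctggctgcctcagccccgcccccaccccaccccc
Vcl, chr14:20929148-20929219, plus strand: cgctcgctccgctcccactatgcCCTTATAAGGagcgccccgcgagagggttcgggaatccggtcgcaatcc

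The thin filament of smooth muscle is made of actin with tropomyosin, caldesmon, calponin and transgelin bound along it, and all 9 genes of this role were lower. Together they had 93849 reads in WT and 59717 in the other library, or 12078 and 6420 CPM, lower by 46.9% (95% interval 46.3% to 47.4%), and all 9 passed a difference of 1.5-fold. Tpm2, which encodes the beta chain of tropomyosin (chromosome 4 of GRCm38, 43514711 to 43523765), had 11088 reads in WT and 5271 in the other library. It was lower by 60.3% (95% interval 59.0% to 61.6%), the largest difference of this role. Tpm1, the gene of the alpha chain, had 22154 and 17213 reads and was lower by 35.1% (95% interval 33.8% to 36.4%), the smallest. The intervals of these tropomyosin genes do not overlap, so that within the filament the genes differed in size by more than counting error.

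Cald1, which encodes caldesmon, an actin-binding protein that restrains myosin, had 11048 and 5770 reads and was lower by 56.4%. Tagln, the transgelin or SM22 gene (chromosome 9, 45929619 to 45936058), had 18546 and 9767 reads and was lower by 56.0%. Exons of Pcsk7 on the other strand overlap those of Tagln, and whether the counting used the strand is not given in the sources used here. Actg2, the actin of visceral smooth muscle, had 3240 and 1954 reads, or 417 and 210.1 CPM. Its log2 difference of -0.99 made it the first gene outside the 2-fold rule, with Mylk at -1.07 the last inside it. Acta2, the alpha actin of smooth muscle, had 18222 and 12927 reads and was lower by 40.7% (95% interval 39.4% to 42.1%), less than Actg2 (49.6%, 46.7% to 52.4%). The actin genes are near-identical in their coding sequence, and how reads that match more than 1 of them were counted is not given in the sources used here. The other 3 thin filament genes lay between Tpm1 and Actg2. Lmod1 (leiomodin, a nucleator of actin filaments) had 1691 and 1067 reads, Smtn (smoothelin) 1509 and 980, and Cnn1 (calponin) 6351 and 4768, lower by 37.3% to 47.3%.

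Of the 6 genes of the motor and of its switch, 5 were lower with intervals below 1, and the interval of Ppp1r14a included 1. Among all genes with at least 10 reads, 23.8% had intervals wholly below 1. The 6 genes of this role were together lower by 49.2% (95% interval 48.4% to 49.9%), with 43966 reads in WT and 26753 in the other library. Myh11, the heavy chain of smooth muscle myosin (chromosome 16, 14194535 to 14291372), had 15691 and 8708 reads, or 2019 and 936.1 CPM, and was lower by 53.6% (95% interval 52.4% to 54.9%). Mylk, the gene of myosin light chain kinase, had 18018 and 10263 reads and was lower by 52.4%. Its 3' end is shared with the transcript of telokin, a short product of the same gene, so that these reads do not separate the products. Myl9, the regulatory light chain that the kinase phosphorylates, had 7292 and 4906 reads and was lower by 43.8%.

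Genes of the phosphatase side and the essential light chain had smaller differences. Ppp1r12b, a targeting subunit of myosin phosphatase, had 744 and 548 reads and was lower by 38.5%, a ratio of 0.615 (95% interval 0.550 to 0.688). Ppp1r14a encodes CPI-17, an inhibitor of that phosphatase, and had 378 reads in WT and 448 in the other library. At 48.7 and 48.2 CPM its ratio was 0.990 (95% interval 0.861 to 1.14), and it was the gene whose direction turned under total counts, to a ratio of 1.08. Myl6, the essential light chain, which is also expressed in cells other than muscle, had 1843 and 1880 reads and was lower by 14.8%. Thus Myh11, Mylk and Myl9 were lower by more than 40%, while the interval of Ppp1r14a included no difference.

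In the intermediate filaments and dense bodies, to which the actin filaments are anchored, 6 of 7 genes were lower. Des, the desmin gene, had 3149 and 2001 reads and was lower by 46.9% (95% interval 43.8% to 49.8%). Synm (synemin), a partner of desmin in the filament, had 3453 and 2645 reads and a ratio of 0.640. Pdlim3, a PDZ and LIM domain protein that binds alpha-actinin (chromosome 8, 45885461 to 45919548), had 688 and 301 reads, or 88.5 and 32.4 CPM. It had the lowest log2 difference of all 34 genes, -1.42, a level lower by 63.5% (95% interval 58.1% to 68.2%). Pdlim7, of the same family, had 596 and 377 reads and was lower by 47.2%. Synpo2 (1974 and 1481 reads) and Nexn (1712 and 1267 reads), which bind actin at such anchoring sites, were lower by 37.3% and 38.2%. Actn1, an alpha-actinin that crosslinks actin in many cell types, was the exception, with 2163 reads in WT and 2750 in the other library and a ratio of 1.06 (95% interval 1.003 to 1.12). Other genes have exons that overlap those of 11 of the 34 genes in the annotation, on the same strand for Pdlim7, Nexn and Hspb6.

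The genes that link the cytoskeleton to the membrane were lower by smaller amounts, with a median log2 difference of -0.36 over 5 genes. Csrp1, a LIM domain protein of smooth muscle, had 3498 and 2218 reads and was lower by 47.0%, and Pgm5, a protein of the attachment plaque related to phosphoglucomutase, had 1730 and 1373 reads and was lower by 33.7%. Flna (filamin A, 4530 and 4227 reads), Svil (supervillin, 580 and 553 reads) and Vcl (vinculin, 492 and 475 reads) were lower by 22.1%, 20.4% and 19.4%. Flna and Vcl are expressed in many cell types, and Svil also in striated muscle. Under total counts these 3 genes were lower by less, at ratios of 0.850, 0.869 and 0.880. Among the remaining genes, Hspb6, a small heat shock protein linked to relaxation, had 603 and 365 reads and was lower by 49.4%, and Jph2, which joins the calcium store to the surface membrane, had 199 and 177 reads and was lower by 25.7% (95% interval 8.57% to 39.7%). Hspb7, another small heat shock protein, had 53 and 37 reads and the widest interval of the lower genes (9.57% to 62.7% lower).

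Ordered by difference, 30 of the 33 pairs of neighbouring genes had overlapping intervals, so that the order is one of broad groups and not of single genes.

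**Figure D2:**
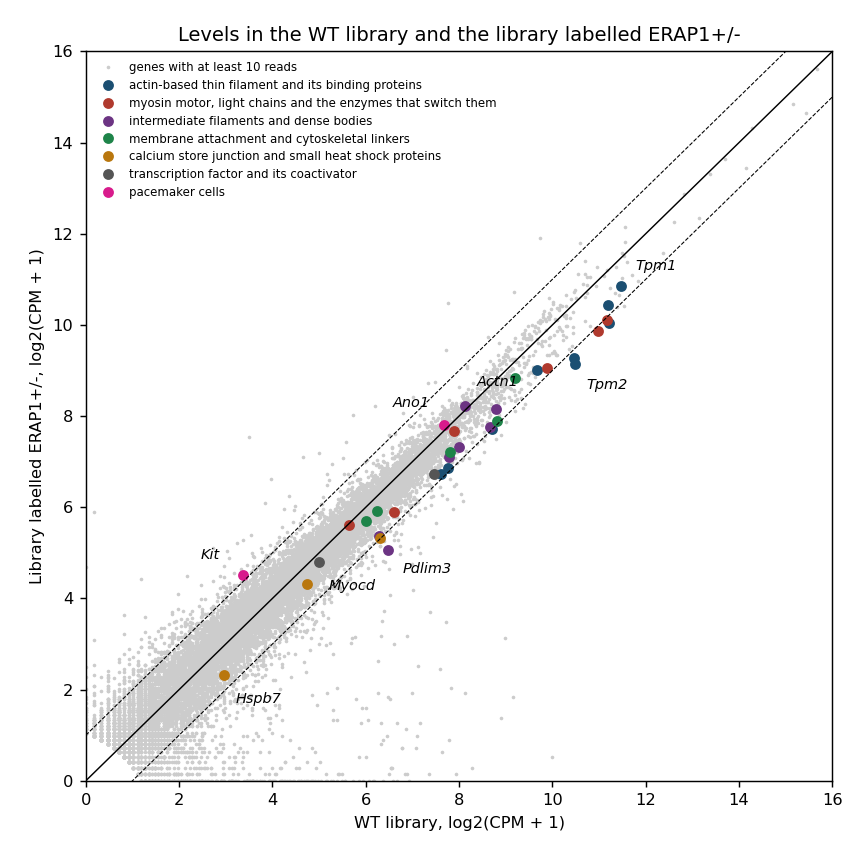
Level of each gene with at least 10 reads (grey) in the WT library (x axis) and in the library labelled ERAP1+/- (y axis), both as log2(CPM + 1), with the 34 genes colored by role. The solid line marks equal levels and the dashed lines 2-fold, and most contractile genes lie between the solid and the lower dashed line across the range of levels, from Hspb7 at 2.97 to Tpm1 at 11.48 in the WT library.

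Both pacemaker genes were higher, Kit by more than 2-fold and Ano1 by a small amount. Kit, the receptor for stem cell factor that marks interstitial cells of Cajal and mast cells (chromosome 5, 75574916 to 75656722), had 72 reads in WT and 202 in the other library, or 9.27 and 21.7 CPM. Its ratio of 2.34 (95% interval 1.78 to 3.11) was the highest of the 34. Ano1, the calcium-activated chloride channel of pacemaker cells, is also expressed in other cell types. It had 1583 and 2075 reads and a ratio of 1.10 (95% interval 1.03 to 1.17), which became 1.19 under total counts. Of 7 genes on the list of interstitial cell markers, which includes Kit and Ano1, 6 were higher and 1 was lower, with 496.5 and 579.7 CPM in all. Of all genes with at least 10 reads, 49.7% were lower. Among the 5 listed genes past the level of 4, 1 (Kit) was more than 2-fold higher, against 1.39% of all genes tested. By a difference of more than 1.5-fold, 2 were higher, against 5.54%. Etv1, a transcription factor of these cells, had 87 and 185 reads (ratio 1.78, 95% interval 1.37 to 2.32), Thbs4 had 1884 and 2574, and Cacna1h, a T-type calcium channel, 24 and 58. Etv1 reached the level only through the library in which it was higher, and Cacna1h did not reach it. The log2 differences of Ano1 (0.13) and Thbs4 (0.19) lay between the quartiles of all genes past the level (-0.28 and 0.21). The other direction was that of Prkcq, a protein kinase C, with 19 and 12 reads.

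Kit is also expressed in other cells of the gut, and the markers of these cells lay in both directions. Of 10 mast cell markers, 7 had at least 10 reads and 5 of these were lower, and the list of 10 had 154 and 69 reads, with no read of Fcer1a in either library. All 7 markers of crypt secretory cells were higher, with 57412 and 108930 reads, and Reg4 had a ratio of 2.94. Both lists were added after the values of Kit had been seen. The part of these cells in the reads of Kit was not tested.

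The wider smooth muscle program was examined with lists of other genes. Of 25 further structural genes of smooth muscle, 22 were lower and 3 were higher, with a median log2 difference of -0.40. In this list 9 of the 23 genes past the level of 4 were more than 1.5-fold lower, against 10% of all genes tested, and 2 more than 2-fold, against 3.96%. The list was not divided by expression in striated muscle, and the part of skeletal muscle RNA in its reads was not tested. Pcp4, a regulator of calmodulin that is found in smooth muscle and in neurons, had 963 reads in WT and 307 in the other library and was 3.75-fold lower (95% interval 3.30 to 4.28). Fhl1, a LIM domain protein of skeletal and smooth muscle, had 3678 and 1770 reads, and Tns1, which encodes tensin, 1671 and 1169. The highest log2 differences of the list were those of Tgfb1i1 (0.19), Fhl2 (0.13) and Sgcd (0.04), all close to 0.

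Genes of calcium, cyclic GMP and RhoA signalling lay in both directions. Of 24 genes, 13 were lower and 11 higher, with a median log2 difference of -0.08, and 1 was more than 2-fold lower and 0 more than 2-fold higher among the 19 past the level of 4, against 3.96% and 1.39% of all genes tested. That gene was Chrm3, the muscarinic receptor through which acetylcholine contracts the gut, with 129 and 51 reads (ratio 0.330, 95% interval 0.234 to 0.460), and it reached the level only through the WT library, in which it was higher. Chrm2, the other muscarinic receptor of this muscle, had 213 and 267 reads, and its interval (0.871 to 1.26) included 1. Cacna1c, the pore of the L-type calcium channel, had 72 and 50 reads, and Pln, the inhibitor of the calcium pump of the store, 179 and 130. The highest differences were those of Adra2a (30 and 74 reads), Ednrb (46 and 101 reads) and Itpr1, the calcium release channel of the store (243 and 420 reads). Under total counts 10 of the 24 genes were lower and the median was 0.04, so that the direction of this list depended on the scaling.

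Regulators of SRF and myocardin were mostly lower, in an order that ran from well below to above the median of all genes. Of 16 genes, 14 were lower, against 49.7% of all genes with at least 10 reads, with a median log2 difference of -0.22. Under total counts 9 were lower, against 39.6%, and the median was -0.10. Of the 11 past the level of 4, 0 were more than 2-fold lower, against 3.96% of all genes tested. By a difference of more than 1.5-fold, 2 of the 11 were lower, against 10%. Prrx1 and Notch3, named below, did not reach the level in either library. Klf4, a factor of epithelium and a repressor of smooth muscle genes, held most reads of the list, 20240 and 15474, with a ratio of 0.639. The myocardin-related factors Mrtfa (134 and 135 reads) and Mrtfb (488 and 569 reads) had intervals that included 1. The lowest differences were those of Prrx1, a homeobox factor (114 and 46 reads), Notch3, a receptor of mural cells (61 and 25 reads), and Mef2d, a MADS-box factor (983 and 605 reads), and the highest were those of Tgfbr2, a receptor of transforming growth factor beta (261 and 426 reads), Gata6 (472 and 619 reads) and Elk1 (65 and 76 reads).

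To compare smooth muscle genes without any scaling of the libraries, their reads were divided by those of a paralog expressed outside muscle in the same library. The reads of Myh11 per read of Myh9, the heavy chain of non-muscle myosin, were 5.75 in WT and 2.64 in the other library, a quotient of 0.460 (95% interval 0.434 to 0.487). Tpm2 to Tpm4 was 6.44 and 3.15, and Tagln to Tagln2 4.04 and 2.35. The quotients of Acta2 and Actg2 to Actb were 0.755 and 0.642, of Cnn1 to Cnn2 and Cnn3 0.773 and 0.569, of Myl9 to Myl12a 0.696 and of Myh11 to Myh10 0.639. All of these intervals lay below 1. The reverse held for Actn1, which many cell types express, with 0.262 and 0.443 reads per read of Actn4 and a quotient of 1.69 (95% interval 1.59 to 1.81). Most of this quotient came from Actn4, which had the lowest difference of the non-muscle list, with 8269 and 6209 reads and a ratio of 0.627. The ratio of Actn1 itself was 1.06. Between the smooth muscle actins, Actg2 per read of Acta2 was 0.178 and 0.151, a quotient of 0.850 (95% interval 0.800 to 0.904). The non-muscle list as a whole was also lower, with 12 of 14 genes and a median of -0.33.

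**Figure D3:**
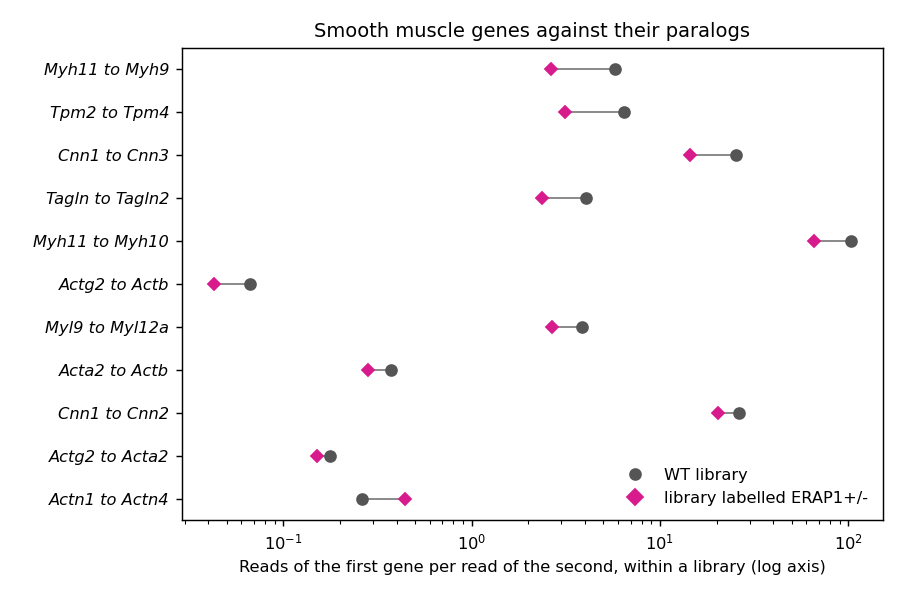
Reads of a gene per read of its paralog within each library, on a log axis, for 11 pairs ordered by the change between the libraries. Circles are the WT library and diamonds the library labelled ERAP1+/-, and the diamond lies left of the circle in all pairs except Actn1 to Actn4.

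Because striated muscle markers were also lower, the set was divided by where else its genes are expressed. The 11 genes expressed mostly in smooth muscle had a median log2 difference of -0.88 and a summed level of 11734 and 6024 CPM, lower by 48.7% (95% interval 48.1% to 49.2%). The 14 genes also expressed in striated muscle, such as Des, Tpm1, Tpm2 and Pdlim3, had a median of -0.68 and 6270 and 3613 CPM. The 9 genes expressed in many or other cell types had a median of -0.31, from -1.20 for Cald1 to 1.15 for Kit. The skeletal muscle markers had 1455 CPM in WT and 101.6 in the other library, and their median log2 difference was -4.00. Tnni1, the troponin I of slow fibres, differed least, with 713 and 669 reads, and held most of the list's 945 reads in the library labelled ERAP1+/-. In the WT library all of them had reads, and in the other Atp2a1, Myoz1 and Casq1 had none, with Acta1, the skeletal actin, at 1490 and 42 reads. The part of skeletal muscle RNA in the reads of the shared genes was not tested. The genes expressed mostly in smooth muscle were lower by 48.7%, and the shared genes by 42.4%. Of 7 cardiac markers, 2 had at least 10 reads over both libraries, Tnnt2 (975 and 241 reads) and Actc1 (58 and 12 reads), both of which skeletal muscle can also express. Mybpc3, of the same list, had no read in either library.

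Markers of other cells of the muscle wall were higher, lower or mixed by list. Of 14 enteric neuron markers, 13 were higher, with 140.3 and 239.5 CPM in all and a median log2 difference of 0.73. For reference, 49.7% of all genes with at least 10 reads were lower. Among the 6 neuron markers past the level of 4, 2 were more than 2-fold higher, against 1.39% of all genes tested. Vip (129 and 348 reads), Calb2 (57 and 154 reads) and Uchl1 (147 and 356 reads) had the highest differences, and Ret, with 41 and 24 reads, was the gene that was lower. Calb2 reached the level only through the library in which it was higher. Enteric glia markers had a median of -0.06 over 8 genes. Markers of vascular mural cells, which share several contractile proteins, had a median of 0.07 over the 8 with enough reads, with 3 lower and 5 higher. Ndufa4l2 (41 and 5 reads, ratio 0.102) and Notch3 (61 and 25 reads, ratio 0.342) were the lowest, and Abcc9 (186 and 320 reads), Pdgfrb (102 and 160 reads) and Rgs5, a marker of pericytes (882 and 1203 reads), the highest. Of 10 fibroblast markers 7 were lower, with a median of -0.14 and a summed level lower by 14.9%. Pi16 (ratio 0.456), Mfap5 (0.647) and Dcn, the decorin gene (0.682), were the lowest and Fbln1 (1.56) the highest. Markers of the intestinal epithelium had a median of -0.34 over 14 genes, from -1.20 for Krt20 to 1.19 for Muc2. Under total counts these medians were 0.06 for glia, 0.19 for mural cells and -0.02 for fibroblasts, so that the sign for glia depended on the scaling.

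**Figure D4:**
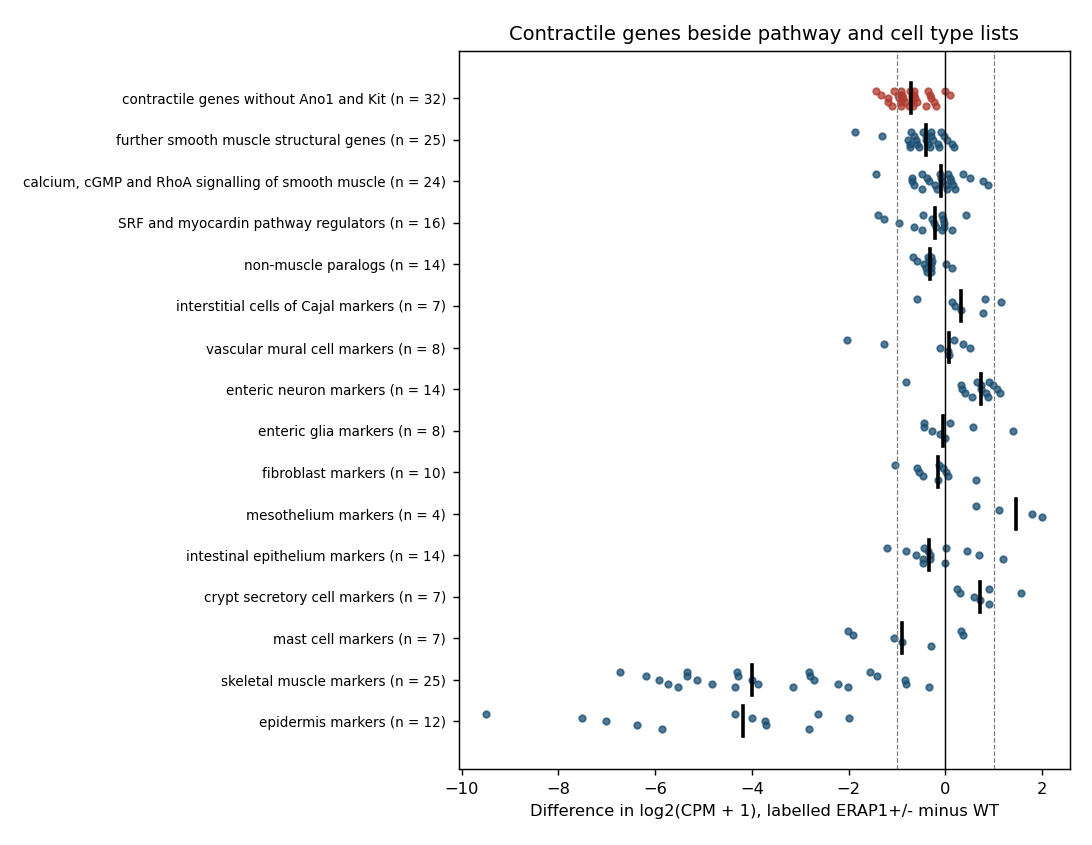
Difference in log2(CPM + 1), library labelled ERAP1+/- minus WT, of each gene with at least 10 reads in the lists named at the left, where n is the number of genes. Points are genes, black bars are medians and dashed lines mark 2-fold. The median of the 32 contractile genes (-0.71) lies right of those of the skeletal muscle (-4.00) and epidermis markers (-4.18). It lies left of that of the enteric neuron markers (0.73). Single genes of the skeletal muscle and enteric neuron lists overlap the contractile genes. All epidermis markers (-1.985 or lower) lie left of the contractile genes.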

How the data were processed

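RNA of the intestine, pooled from 3 mice per genotype, was sequenced as single-end reads of 75 bp from a 3' mRNA library. The deposited counts are integer reads for each gene symbol, not normalized by the authors. The methods describe STAR with HTSeq and also Bowtie2 with RSEM on GRCm38; the submitters' processing notes name Bowtie2 and RSEM, without versions, and which made the counts is not given in the sources used here.

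Library sizes were adjusted by TMM in edgeR 4.0.16 (R 4.3.3). The factors were 0.958 (WT) and 1.04 (labelled ERAP1+/-), and log2(CPM + 1) was taken from the adjusted sizes. Intervals are exact conditional binomial 95% intervals (scipy 1.17.1), and those of quotients of paralogs are exact conditional intervals of the odds ratio. Medians and counts of lower and higher genes over a list used genes with at least 10 reads over both libraries, and sums used the whole list. The steps were tested on simulated data of independent counts, which held no variation between mice or from PCR and so did not test these. Coordinates are those of GENCODE M21 on GRCm38, matched by symbol for all 34 genes, and promoter windows are those of RefSeq.

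The members and lists were chosen with earlier results of these data known, and 2 listed genes that are not members were taken out afterwards and are not reported here. The rule for naming genes was all members and, of each other list described, up to 3 with the lowest and 3 with the highest difference. Markers at 0 in both libraries and Erap1 were also named. Chrm2, Klf4, Mrtfa, Mrtfb, Thbs4, Epcam, Acta1, Atp2a1, Myoz1 and Casq1, the mesothelium markers at 0 in WT and the actins Actg1 and Actb were named outside it for their roles, after their values were seen. Alternatives were scaling by the total count, DESeq2 1.42.0 size factors, TMM without skeletal muscle, epidermis and mitochondrial genes, a pseudocount of 0.1, other filters and thresholds, thinning of the deeper library, and leaving out genes shared with striated muscle.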

Additional observations from a re-analysis of the deposited data

How the results depend on the processing

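With 1 library per genotype, no alternative tests variation between mice, and there was nothing to leave out. No paired analysis was possible because the design holds a single library of WT and a single one of ERAP1+/-. Of the 6 genes more than 2-fold lower, 0 passed a 4-fold threshold, and Kit, the gene more than 2-fold higher, gave 0 genes at 4-fold and 0 where the filter was a log2 value of 6. Without the 14 genes also expressed in striated muscle, 12 of the remaining 20 were more than 1.5-fold lower, against 23 of all. Scaling by the total count gave a ratio of the summed reads of 0.603, against 0.553. Over all 34 genes the median ran from -0.72 to -0.57, and it was -0.75 both over the genes with a log2 value of 6 and over the 20 genes. Of 170 values of single genes recomputed under other scalings, the smaller pseudocount and thinning, 168 kept their sign, and the 2 others were those of Ppp1r14a. Genes with few reads, such as Hspb7 with 53 and 37, are limited by depth.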

Other observations

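Mesothelium, the outermost layer of the gut wall, was another cell type with a difference, although its reads were few. Its 5 markers had 10 WT reads in all, against 89 in the library labelled ERAP1+/-. Msln and Lrrn4 had 0 reads in the WT library, a count that allows up to 3 reads, and 23 and 28 in the other. Against that limit they were 6.40-fold and 7.80-fold higher, with the counting error of the library labelled ERAP1+/- left out. The exact intervals of their ratios, which include that error, had lower ends of 4.80 and 5.93. Upk3b had 0 and 2 reads.

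Among the non-muscle actins, Actg1 had 67 WT reads and 64 in the other library, while Actb had 48591 and 45661. Actins share nearly identical coding sequence, and how the counting treated reads that fit more than 1 gene is not given in the sources used here. The reads of Acta2 and Actg2 carry the same limit.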
